A study of Rattus norvegicus with 20 samples.

Results

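Of the 24613 gene identifiers in the count table, 6 belong to the mitochondrially encoded subunits of respiratory complexes III, IV and V. They were taken by identifier from a given list that also held their names, and this pairing was not checked in the data. The list was Mt-cyb (ENSRNOG00000031766) of complex III, Mt-co1 (ENSRNOG00000034234), Mt-co2 (ENSRNOG00000030371) and Mt-co3 (ENSRNOG00000030700) of complex IV, and Mt-atp6 (ENSRNOG00000031979) and Mt-atp8 (ENSRNOG00000033299) of complex V. All 6 were in every one of the 20 libraries, and all 6 were among the 13398 genes that passed the filter on low counts.

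Mitochondria keep a small circular genome of their own, and its protein genes all encode core subunits of oxidative phosphorylation. Complex III passes electrons from ubiquinol to cytochrome c, complex IV (cytochrome c oxidase) passes them on to oxygen, and complex V (ATP synthase) uses the resulting proton gradient to make ATP. The genome is transcribed as long precursors that are cut into messenger RNAs. The reading frames of Mt-atp8 and Mt-atp6 overlap and lie on a shared messenger RNA. The soleus is a slow calf muscle that helps to hold posture, and it consists largely of oxidative fibres that are rich in mitochondria.

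RNA from the soleus of Sprague-Dawley rats was sequenced as poly-A libraries, 4 for each of 5 groups. Uninjured rats (No SCI, labelled 11.5 weeks) had no exercise. The transection group had a complete cut of the cord at T2 and was sampled 8.5 weeks after injury. The contusion group had a 25 g-cm impact at T2 with the NYU Impactor and was sampled at 11.5 weeks. The swimming (SWIM) and walking (SWW, shallow water walking) groups had that same contusion and trained in water on 5 days a week for 10 weeks from 2.5 weeks after injury, with sampling at 13.5 weeks. Every injury followed a laminectomy at a single level, whether uninjured rats had one is not given in the sources used here, and the design text has all animals in small cages, 2 to a cage, after 4 days. The age and sex of the rats are not given in the sources used here. Most groups therefore differ in time after injury as well as in injury or exercise, and the effects of these cannot be told apart.

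Libraries held between 21165832 and 39729930 counts, and the lowest count of any of the 6 genes in any library was 19161, for Mt-atp8 in uninjured library 1. Transection library 3 had the fewest genes with a count (13837) and the lowest scaling factor (0.711), and it and swimming library 2 had been set apart in an earlier reading of these data. Results on either group are given with these libraries, and values with both left out follow for the tests, the shares, the composition and the ratio of Mt-co1 to Mt-co2. The table pairs no identifier with a name, so the tissue was not checked against its marker genes. Other genes of the respiratory chain could likewise not be picked out by name. Nuclear copies of mitochondrial sequence and the overlap of Mt-atp8 with Mt-atp6 may share counts, since the handling of such reads is not given in the sources used here. Counts were not divided by transcript length, so levels are compared between groups for the same gene and not between genes.

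The 6 genes together took a large part of each library, and the largest part after transection. Their share of all counts was 10.4%, 13.5%, 14.1% and 12.3% in uninjured libraries 1 to 4, a mean of 12.6% ± 1.62 (SD, n = 4). In transection libraries it was 21.5%, 25.5%, 22.6% and 19.8%, a mean of 22.3% ± 2.39 (SD, n = 4), which is 1.78 times the uninjured mean. Every transection library lay above every other library of the study. The contusion libraries stood at 17.8%, 14.4%, 14.04% and 17.6%, a mean of 16.0% ± 2.03 (SD, n = 4), with libraries 2 and 3 inside the uninjured range or just above it. Swimming libraries lay between 11.0% and 12.2% (mean 11.5% ± 0.554, SD, n = 4) and walking libraries between 12.5% and 13.98% (mean 13.5% ± 0.675, SD, n = 4). Both exercise groups lay below all 4 contusion libraries, and swimming lay below walking without overlap, while both overlapped uninjured. With transection library 3 and swimming library 2 left out, the means were 22.2% ± 2.92 and 11.7% ± 0.607 (SD, n = 3 each).

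**Figure D1:**
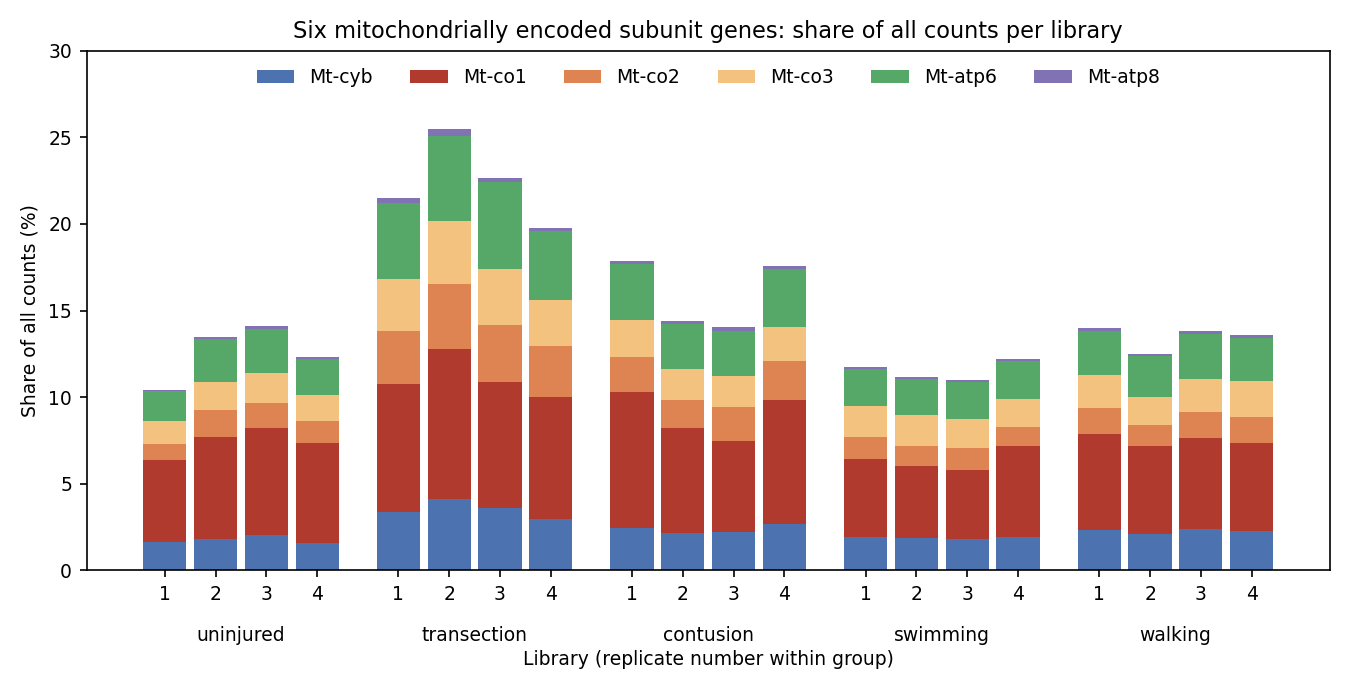
Share of all counts (%, vertical axis) taken by each of the 6 genes in each of the 20 libraries, stacked and grouped by treatment. The 4 transection bars reach between 19.8% and 25.5%, above every other library, and the swimming bars lie between 11.0% and 12.2%.

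A share of all counts also moves with the other abundant genes of a library. Against the counts of genes outside the 50 most abundant of each library, the 6 genes had counts equal to 23.2% ± 3.43 in uninjured, 52.3% ± 8.39 in transection, 31.6% ± 5.12 in contusion, 21.4% ± 0.778 in swimming and 25.6% ± 1.45 in walking libraries (SD, n = 4 each). The order of the group means was the same on this scale, but the overlaps were not. Walking library 3 (26.9%) lay above contusion library 2 (26.8%), so walking and contusion overlapped, while all contusion libraries lay above the highest uninjured library (26.6%). Leaving out transection library 3 and swimming library 2 gave means of 50.8% ± 9.59 and 21.2% ± 0.721 (SD, n = 3 each). By complex, the share of all counts in the complex IV genes was 8.49% in uninjured, 13.99% in transection, 10.5% in contusion, 7.39% in swimming and 8.55% in walking libraries. The complex V genes took 2.33%, 4.84%, 3.12%, 2.26% and 2.65% in the same order of groups. In bulk muscle, fewer cells of a type and less RNA per cell cannot be told apart, so these shares do not separate a change in fibres from a change in mitochondrial RNA per fibre.

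Transection against uninjured compares the complete cut of the cord with no injury, at 8.5 and 11.5 labelled weeks. All 6 genes rose, by 1.73-fold to 3.21-fold (edgeR quasi-likelihood test, adjusted over all genes tested), where 13.4% of all genes tested rose. In each of the 6, all 4 transection libraries lay above all 4 uninjured libraries, which held for 13.5% of all genes tested. The median log2 difference of the 6 was 1.41, against 0.02 for all genes, whose central range from the 10th to the 90th percentile was -0.83 to 0.73.

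Mt-cyb, the cytochrome b of complex III that carries both of its haem b groups, stood at 15320.1, 16650.3, 18633 and 16083 CPM (a normalised read count, scaled to library size) in uninjured libraries 1 to 4. In transection libraries 1 to 4 it stood at 37279, 53169, 50881 and 31035 CPM. The highest uninjured value was well below the lowest transection value. Its log2 difference was 1.37 (SE 0.17, edgeR adjusted p = 7.85e-06).

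Among the complex IV genes, Mt-co2 had the largest difference and Mt-co1 the smallest. Mt-co1 encodes the catalytic subunit that holds haem a3 and copper B, where oxygen is reduced. It read 43536, 55070, 56755 and 58802 CPM in uninjured libraries, and 81307, 112328, 102014 and 73795 CPM after transection. The groups did not overlap, and the log2 difference was 0.79 (SE 0.17, edgeR adjusted p = 1.87e-03). Mt-co2 encodes the subunit that takes electrons from cytochrome c through its copper A centre. It read 8844, 14389, 13417 and 12987 CPM in uninjured libraries against 33198, 49094, 46030 and 31188 CPM after transection. Uninjured library 1 was the lowest of its group, and the log2 difference was 1.68 (SE 0.19, edgeR adjusted p = 4.05e-06). Mt-co3, the third core subunit of complex IV, which carries no metal centre, went from 12336, 15125, 15680.4 and 15032 CPM to 33297, 46891, 45616 and 28006 CPM. Its log2 difference of 1.40 (SE 0.18, edgeR adjusted p = 9.94e-06) was close to that of Mt-cyb.

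Both complex V genes rose by nearly the same amount. Mt-atp6, subunit a of the proton channel, read 16050.3, 22649, 23564.5 and 21154 CPM in uninjured libraries and 48042, 64029, 70926 and 41485 CPM after transection, which is 1.43 higher on the log2 scale (SE 0.18, edgeR adjusted p = 1.11e-05). Mt-atp8, a small membrane subunit of the peripheral stalk region, read 679, 1214, 1599 and 1437 CPM, and 3010.1, 5017, 2968 and 2104 CPM after transection. It varied most between libraries of these groups, and its log2 difference was 1.41 (SE 0.26, edgeR adjusted p = 4.95e-04). In CPM, transection libraries 2 and 3 were higher than library 4 for each of the 6 genes, and uninjured library 1 was the lowest of its group. In share of all counts, Mt-cyb was lower in uninjured library 4 (1.58%) than in library 1 (1.65%).

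The rise after transection did not rest on a single library or setting among those tried. All 6 genes passed the test in each of the 8 fits that left out a library of either group, and without transection library 3 and swimming library 2 the log2 differences were 0.71 to 1.58. The size does depend on the scaling. Transection libraries had scaling factors of 0.711 to 0.953 and uninjured libraries 0.982 to 1.09, and when libraries were scaled by their totals alone the log2 differences were 0.43 for Mt-co1 (edgeR adjusted p = 0.0139) and 1.00 to 1.32 for the other five genes. The median of all genes then shifted from 0.02 to -0.32, and 506 genes rose and 4188 fell, in place of 1789 and 1976.

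**Figure D2:**
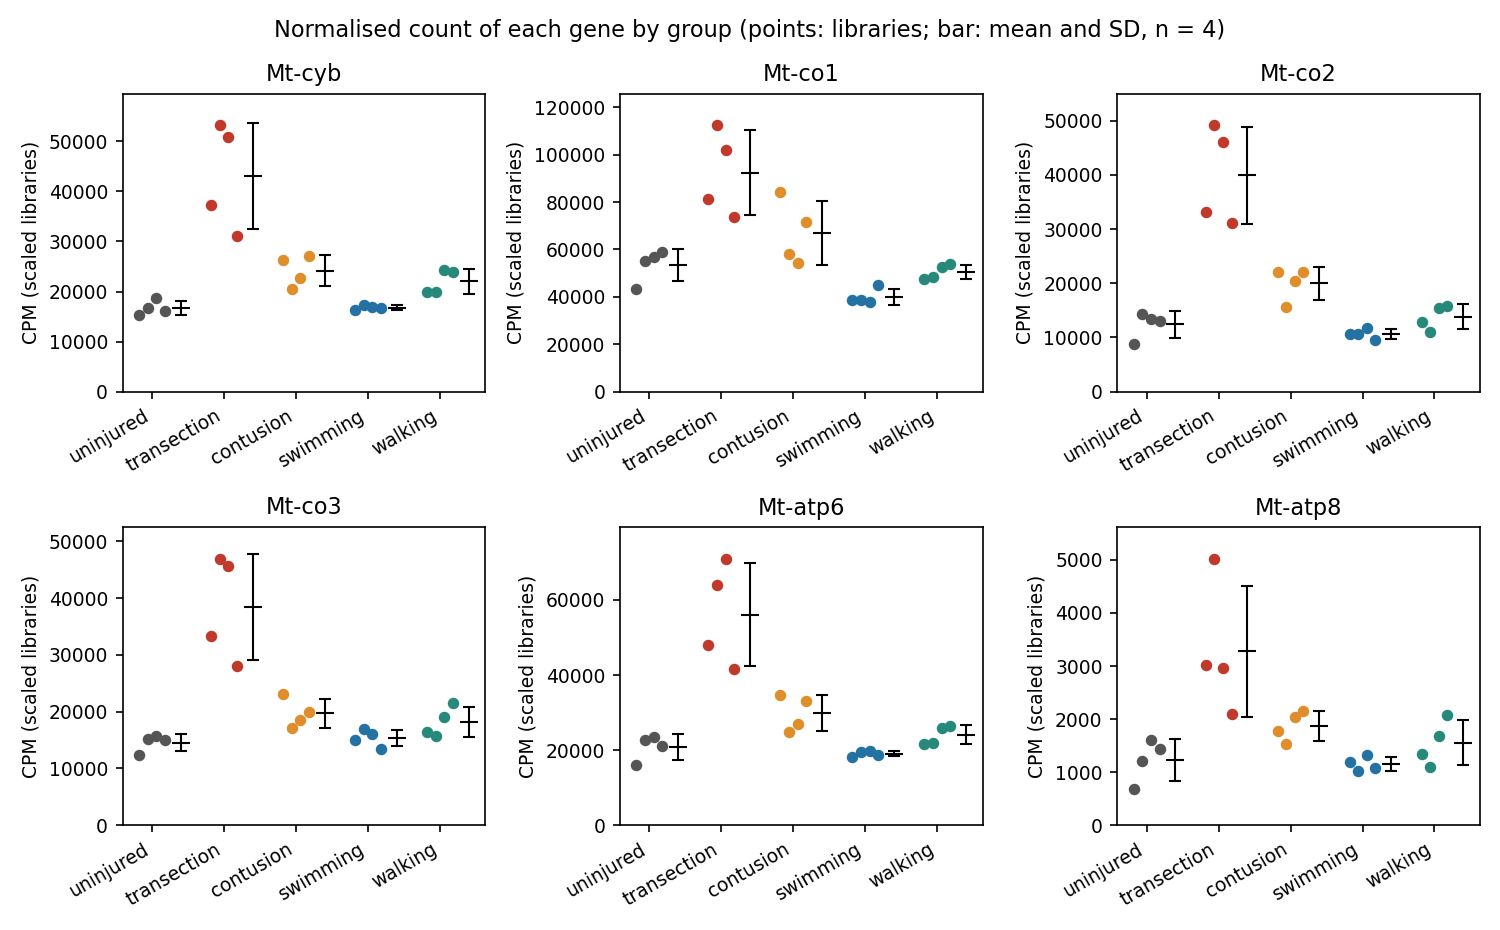
Normalised read count (CPM, vertical axis, scaled library sizes) of each gene in each library (points) by group, with the mean and SD (n = 4) beside them; each panel has its own axis from 0. In all 6 panels the transection points lie above the uninjured points, and the swimming points lie below the contusion points.

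Contusion against uninjured asks what the partial injury did without exercise, both groups being labelled 11.5 weeks. None of the 6 genes passed the edgeR test, and neither did any of the 13398 genes (0 called, 0%). The differences of the 6 were all positive, between 0.32 and 0.69 on the log2 scale, with a median of 0.53 against 0.01 for all genes. Before adjustment 5 of the 6 had p below 0.05, as did 9.80% of all genes. In 4 of the 6 (Mt-cyb, Mt-co2, Mt-co3 and Mt-atp6) all contusion libraries lay above all uninjured libraries, which held for 3.58% of all genes.

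Mt-cyb read 26388, 20525, 22712 and 27017 CPM in contusion libraries 1 to 4, a log2 difference of 0.54 from uninjured (95% interval 0.19 to 0.88, edgeR adjusted p = 0.235). Mt-co2 had the largest difference of the 6. It read 21989, 15621, 20433 and 22049 CPM after contusion, a log2 difference of 0.69 (95% interval 0.30 to 1.08, edgeR adjusted p = 0.200). This gene passed with DESeq2 alone among the alternatives (log2 0.68, adjusted p = 0.0369), which called 38 genes higher and 61 lower in all, while voom with sample weights called 12 higher and 12 lower in all and 0 of the 6. With edgeR and transection library 3 and swimming library 2 left out, 18 genes were called higher and 28 lower, and 0 of the 6. Mt-co1 had the smallest difference, with 84217, 57933, 54419 and 71501 CPM. Its libraries 2 and 3 lay within the uninjured range, and the log2 difference was 0.32 (95% interval -0.03 to 0.68, edgeR adjusted p = 0.565). Mt-co3 read 23084, 17114, 18585 and 19995 CPM (log2 0.44), and Mt-atp6 read 34704, 24748, 27042 and 33037 CPM (log2 0.52). Mt-atp8 read 1767, 1529, 2044 and 2154 CPM, with library 2 inside the uninjured range (log2 0.60). The intervals of 5 genes lie above 0 although the test adjusted over all genes was not passed, so a difference of this size is neither shown nor shown to be absent.

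Transection against contusion compares the complete with the partial injury, at 8.5 and 11.5 weeks. Of the 6 genes, 5 rose, where 6.07% of all genes rose, and in 4 the groups did not overlap, where 9.24% of all genes stood so. Mt-co2 differed by 0.99 (SE 0.19, edgeR adjusted p = 1.48e-03) and Mt-co3 by 0.97 (SE 0.17, edgeR adjusted p = 8.61e-04) on the log2 scale. Mt-atp6 differed by 0.91 (edgeR adjusted p = 1.84e-03) and Mt-cyb by 0.83 (edgeR adjusted p = 2.02e-03). Mt-atp8 rose by 0.81 with overlapping groups, since transection library 4 (2104 CPM) lay below contusion library 4 (2154 CPM). Its edgeR adjusted p was 0.0392, and the call was lost without transection library 1, 2 or 3, without contusion library 1, 2 or 3, without transection library 3 and swimming library 2 together (adjusted p = 0.0550), and with library totals (log2 0.54, adjusted p = 0.105). Mt-co1 did not pass, at a log2 difference of 0.46 (95% interval 0.11 to 0.82, edgeR adjusted p = 0.0713), and contusion library 1 with 84217 CPM lay above 2 of the transection libraries. It passed without contusion library 1 (log2 0.59, adjusted p = 0.0369), without transection library 4 (log2 0.54, adjusted p = 0.0352) and with DESeq2 (adjusted p = 0.0223). Without transection library 3 and swimming library 2, Mt-cyb, Mt-co2, Mt-co3 and Mt-atp6 passed at log2 differences of 0.73, 0.90, 0.86 and 0.76, and Mt-co1 stood at 0.40 (adjusted p = 0.146). With library totals the median of all genes was -0.23, and 218 genes rose and 2292 fell, in place of 813 and 1239.

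**Figure D3:**
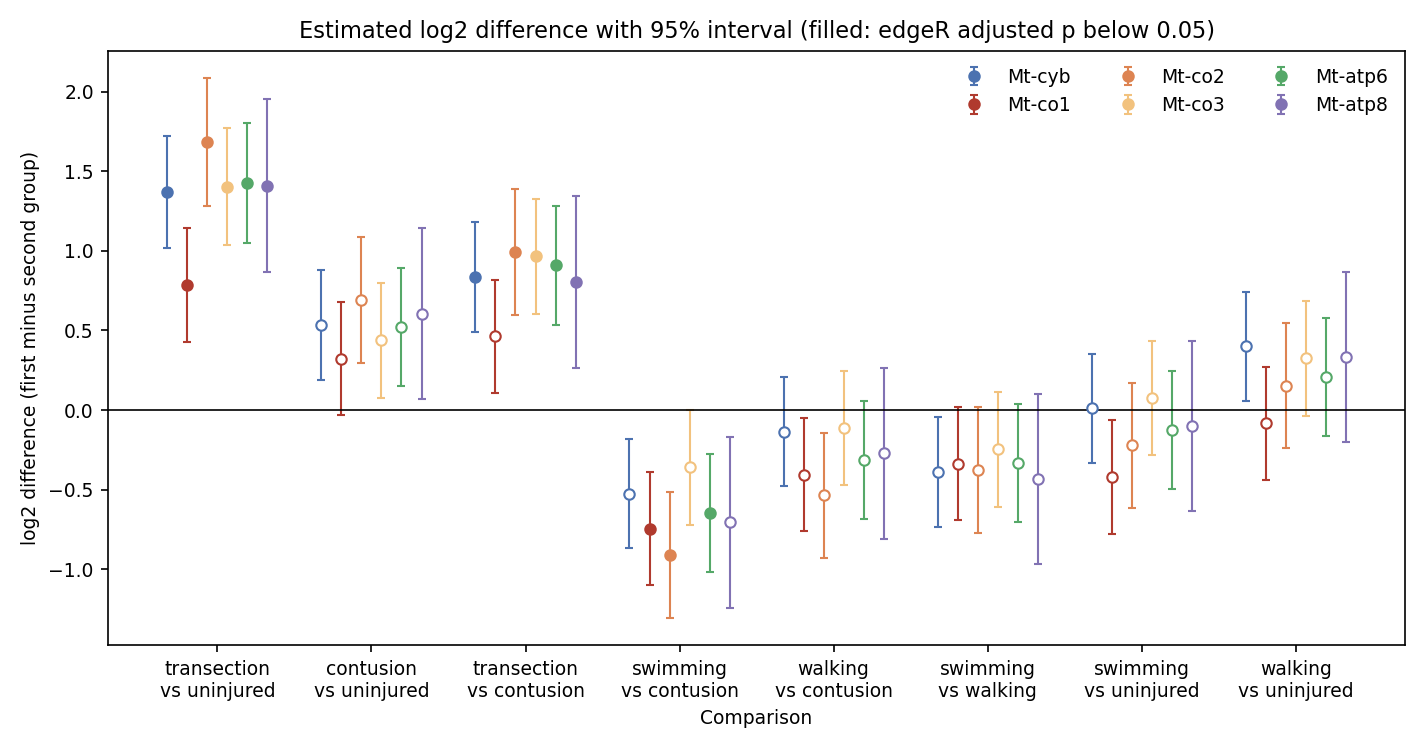
Estimated log2 difference (first group minus second, vertical axis) of each gene in each of the 8 comparisons, with its 95% interval from the edgeR fit; filled points have an adjusted p below 0.05. Filled points lie in 3 comparisons: transection against uninjured (6 genes), transection against contusion (5) and swimming against contusion (3).

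Swimming against contusion asks what 10 weeks of swimming changed in contused rats, with sampling 2 weeks apart. Of the 6 genes 3 fell, where 2.25% of all genes fell, and for all 6 every swimming library lay below every contusion library, which held for 6.81% of all genes. The median log2 difference of the 6 was -0.67, against 0.01 for all genes.

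In complex IV, Mt-co2 read 10578, 10708, 11755 and 9526 CPM in swimming libraries 1 to 4, below the lowest contusion value of 15621 CPM. It fell by 0.91 on the log2 scale (SE 0.19, edgeR adjusted p = 0.0196). Mt-co1 read 38544, 38824, 37849 and 44876 CPM, and it fell by 0.74 (SE 0.17, edgeR adjusted p = 0.0252). Mt-co3 had the smallest difference, with 15037, 16874, 15976 and 13505 CPM against a lowest contusion value of 17114 CPM. Its log2 difference was -0.36 (95% interval -0.72 to -2.15e-04, edgeR adjusted p = 0.221) and did not pass the test. Among the complex V genes, Mt-atp6 read 18230.4, 19442, 19890.4 and 18818 CPM and fell by 0.65 (SE 0.18, edgeR adjusted p = 0.0452). Mt-atp8 read 1187, 1014, 1316 and 1084 CPM, a log2 difference of -0.70 (95% interval -1.24 to -0.17, edgeR adjusted p = 0.114). Mt-cyb of complex III read 16334, 17372, 16838 and 16677 CPM, the narrowest group of any of the 6 genes, with a log2 difference of -0.52 (95% interval -0.87 to -0.18, edgeR adjusted p = 0.0689).

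The 3 calls after swimming depended on single libraries to unequal degrees, while the direction was negative for all 6 genes in each alternative tried. Of the 8 fits with a library left out, Mt-co2 passed in 6, Mt-co1 in 4 and Mt-atp6 in 0. Of the 10 other alternatives, they passed in 10, 9 and 6. With a library of either group left out, between 0 and 2 of the 6 genes passed. None passed without contusion library 1 or without contusion library 4, and 1 passed without contusion library 2 or without swimming library 2. Mt-atp6 was lost in each of these 8 fits, with library totals (adjusted p = 0.0535), with no low-count filter (adjusted p = 0.0525), with the replicate block (adjusted p = 0.0600) and with the compared groups alone (adjusted p = 0.0801). Fitted to the compared groups alone, only Mt-co2 passed, and with DESeq2 or voom Mt-cyb passed as well, so that 4 genes fell. Over all genes, the count that passed was similarly dependent on the libraries: 298 rose and 302 fell with all of them, and 0 and 1 without contusion library 1. With library totals 280 rose and 19 fell, with the median of all genes at 0.19. Without transection library 3 and swimming library 2 together, Mt-co1, Mt-co2 and Mt-atp6 passed with adjusted p of 0.0267, 0.0186 and 0.0359.

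**Figure D4:**
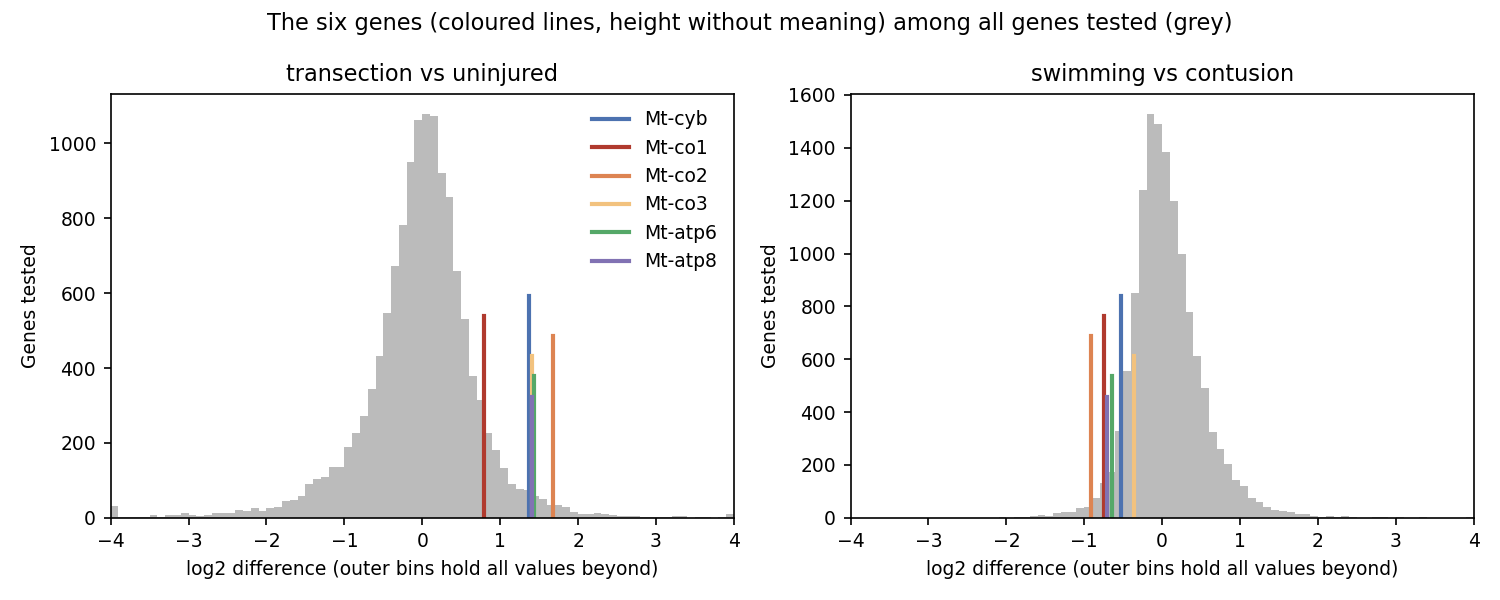
Distribution of log2 differences of all 13398 genes tested (grey, number of genes per bin on the vertical axis) with each of the 6 genes marked by a line whose height has no meaning, for transection against uninjured and swimming against contusion. The 6 lines lie between 0.79 and 1.68 in the first panel and between -0.91 and -0.36 in the second.

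Walking against contusion asks the same of shallow water walking. None of the 6 genes passed the edgeR test, and none of all genes did (0 called, 0%, also with DESeq2 and with voom). Before adjustment 2 of the 6 and 3.18% of all genes had p below 0.05. All 6 differences were below 0, with a median of -0.29 against 0.01 for all genes. Mt-co2 read 12943, 11005, 15431 and 15869.7 CPM in walking libraries 1 to 4, a log2 difference of -0.54 (95% interval -0.93 to -0.14), and walking library 4 lay above contusion library 2 (15621 CPM). Mt-co1 read 47685, 48193, 52723 and 53727 CPM, all below the lowest contusion value, with a log2 difference of -0.41 (95% interval -0.76 to -0.05). It was the 1 gene of the 6 without overlap, where 1.87% of all genes were lower without overlap. The intervals of the other four genes included 0: Mt-atp6 at -0.31, Mt-atp8 at -0.27, Mt-cyb at -0.13 and Mt-co3 at -0.11. The adjusted p of each of the 6 was 1.00 in edgeR when rounded.

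Swimming against walking compares the 2 kinds of exercise at the same time after injury. None of the 6 passed the test, nor with DESeq2 or voom, and a single gene of all tested was called lower (0.00746%). That count over all genes depends on the tool and on walking library 1: DESeq2 called 78 genes higher and 62 lower, voom 204 and 108, and edgeR 197 and 101 without that library. Before adjustment Mt-cyb alone of the 6 had p below 0.05, against 15.3% of all genes. The log2 differences of the 6 ran from -0.43 for Mt-atp8 to -0.25 for Mt-co3. For Mt-cyb the walking libraries read 19868, 19984, 24298 and 23888.5 CPM, all above the swimming libraries (log2 -0.39, 95% interval -0.73 to -0.05, edgeR adjusted p = 0.284). Mt-co1 and Mt-atp6 were also lower in swimming without overlap, making 3 of the 6 where 3.50% of all genes were so. In walking libraries 1 to 4 Mt-atp6 read 21733, 22033, 25943 and 26529.9 CPM, Mt-co3 read 16393, 15783, 19124 and 21557 CPM, and Mt-atp8 read 1339, 1101, 1690 and 2076 CPM. In CPM, walking libraries 3 and 4 were higher than 1 and 2 for each of the 6 genes. That order depends on the scaling factors, which were 1.17, 1.06, 0.991 and 0.948 in walking libraries 1 to 4. In share of all counts, walking library 1 was the highest of its group for the sum of the 6 (13.98%) and for Mt-co1 (5.56%). An effect of swimming on these genes that differs from that of walking was therefore not shown, although swimming alone gave calls against contusion. Without transection library 3 and swimming library 2, the differences between swimming and walking ran from -0.42 for Mt-cyb (edgeR adjusted p = 0.219) to -0.31 for Mt-co3, and 0 of the 6 passed.

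Against uninjured rats, neither exercise group had a call among the 6 genes, where 20.0% of all genes changed with swimming and 0.463% with walking. These background counts move with single libraries and tools. Without uninjured library 4, 689 genes were higher and 770 lower with swimming, in place of 1338 and 1347, and 3 and 4 with walking, in place of 22 and 40. For walking, DESeq2 called 157 higher and 218 lower, and voom 150 and 238. Mt-co1 was the gene of the 6 farthest from its uninjured level after swimming, at a log2 difference of -0.42 (95% interval -0.78 to -0.06, edgeR adjusted p = 0.0864). It was the only 1 of the 6 with an unadjusted p below 0.05 (34.7% of all genes), and it passed with DESeq2 (log2 -0.42, adjusted p = 0.0328) and with voom (log2 -0.45, adjusted p = 0.0403). The other five ran from -0.22 for Mt-co2 to 0.08 for Mt-co3. Their 95% intervals all included 0, from the widest, -0.63 to 0.44 for Mt-atp8, to the narrowest, -0.33 to 0.35 for Mt-cyb. Without transection library 3 and swimming library 2, Mt-co1 stood at -0.44 (edgeR adjusted p = 0.0857) and the other five between -0.25 for Mt-co2 and 7.94e-04 for Mt-co3. After walking, Mt-cyb had the largest difference, at 0.40 (95% interval 0.06 to 0.74, edgeR adjusted p = 0.277), and Mt-co1 stood at -0.08 (95% interval -0.44 to 0.27). Mt-cyb was the 1 gene of the 6 with an unadjusted p below 0.05 (13.6% of all genes), and DESeq2 and voom called 0 of the 6. Mt-cyb and Mt-co3 were higher in every walking library than in every uninjured library, 2 of 6 where 4.41% of all genes were so.

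The 6 genes showed 3 orders of group means, with transection highest and contusion next for all 6. Mt-cyb fell in order from 43091 ± 10667 CPM in transection through 24160.4 ± 3078 in contusion, 22009.8 ± 2412 in walking and 16806 ± 432 in swimming to 16672 ± 1417 in uninjured libraries (SD, n = 4 each). Mt-co3 kept that order, from 38453 ± 9278 through 19694 ± 2547, 18214 ± 2660 and 15348 ± 1440 to 14543 ± 1499 CPM. In these 2 genes the lowest group was uninjured, but for Mt-cyb swimming stood at 16617 CPM, under uninjured, without swimming library 2 (scaling as with all libraries). Mt-co2 went from 39877 ± 8998 through 20023 ± 3029 in contusion, 13812 ± 2272 in walking and 12409 ± 2448 in uninjured to 10642 ± 911 CPM in swimming. Mt-atp6 (56121 ± 13677, 29883 ± 4748, 24060 ± 2528, 20855 ± 3353 and 19095 ± 725 CPM) and Mt-atp8 (3275 ± 1234, 1873 ± 281, 1551 ± 425, 1232 ± 401 and 1150.3 ± 131 CPM) had the same order as Mt-co2. Mt-co1 alone had uninjured (53541 ± 6842 CPM) above walking (50582 ± 3086 CPM), with transection at 92361 ± 17877, contusion at 67018 ± 13628 and swimming at 40023 ± 3261 CPM. Of these neighbours, transection and contusion passed the edgeR test for 5 genes, and no other neighbouring groups did for any of the 6. By their libraries alone, transection and contusion did not overlap for 4 genes, and walking and swimming, neighbours in the orders of Mt-cyb and Mt-co1, did not overlap in either.

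In these libraries the 6 genes did not rise in equal parts after transection, but no difference in composition passed its adjusted test. The smallest adjusted p was 0.0722 (exact two-sided permutation test). Mt-co1 made up 45.0%, 44.0%, 43.8% and 46.9% of the counts of the 6 genes in uninjured libraries 1 to 4, and 34.4%, 33.98%, 32.0% and 35.5% in transection libraries. These are means of 44.9% ± 1.40 and 34.0% ± 1.46 (SD, n = 4 each), and the transection libraries lay below each of the other 16 libraries. Contusion libraries had 41.0% ± 2.70, swimming 38.8% ± 2.88 and walking 39.0% ± 1.60 in Mt-co1, with contusion library 1 (43.8%) and swimming library 4 (42.9%) the highest of these. Mt-co2 moved the other way after the 2 injuries without exercise, from 10.3% ± 0.965 in uninjured to 14.6% ± 0.431 in transection and 12.4% ± 1.26 in contusion libraries. Its contusion and uninjured libraries overlapped. In the exercised groups it stayed close to uninjured, at 10.3% ± 0.925 in swimming and 10.6% ± 0.838 in walking libraries. Contusion library 3 (14.1%) was the only library outside the transection group to reach the transection range.

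Mt-co3 and Mt-cyb took larger parts in both exercised groups than in uninjured, without overlap. Mt-co3 made up 12.2% ± 0.351 in uninjured, 14.03% ± 0.369 in transection, 12.2% ± 0.612 in contusion, 14.9% ± 1.40 in swimming and 13.9% ± 0.727 in walking libraries. Mt-cyb made up 14.1% ± 1.34, 15.7% ± 0.516, 14.9% ± 0.842, 16.3% ± 0.291 and 16.9% ± 0.406 in that order of groups. Mt-atp6 made up 17.4% ± 0.827 in uninjured, 20.5% ± 1.25 in transection and 18.4% to 18.5% in the other groups, and Mt-atp8 between 1.01% and 1.18% in each group. Over 6 genes and 8 comparisons, 19 of the 48 differences had no overlap between groups and so the smallest p that the exact two-sided permutation test allows for 4 against 4 libraries, 0.0286. After Benjamini-Hochberg adjustment over the 48 these stood at 0.0722, and 0 passed. With that smallest p, none could pass unless more of the 48 lacked overlap, so the adjusted test does not decide on the composition. The parts sum to the whole in each library, so these tests are not independent of one another. Without transection library 3 and swimming library 2, 20 of the 48 had no overlap, and transection libraries had 34.7% ± 0.803 in Mt-co1 and 14.6% ± 0.514 in Mt-co2 (SD, n = 3).

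**Figure D5:**
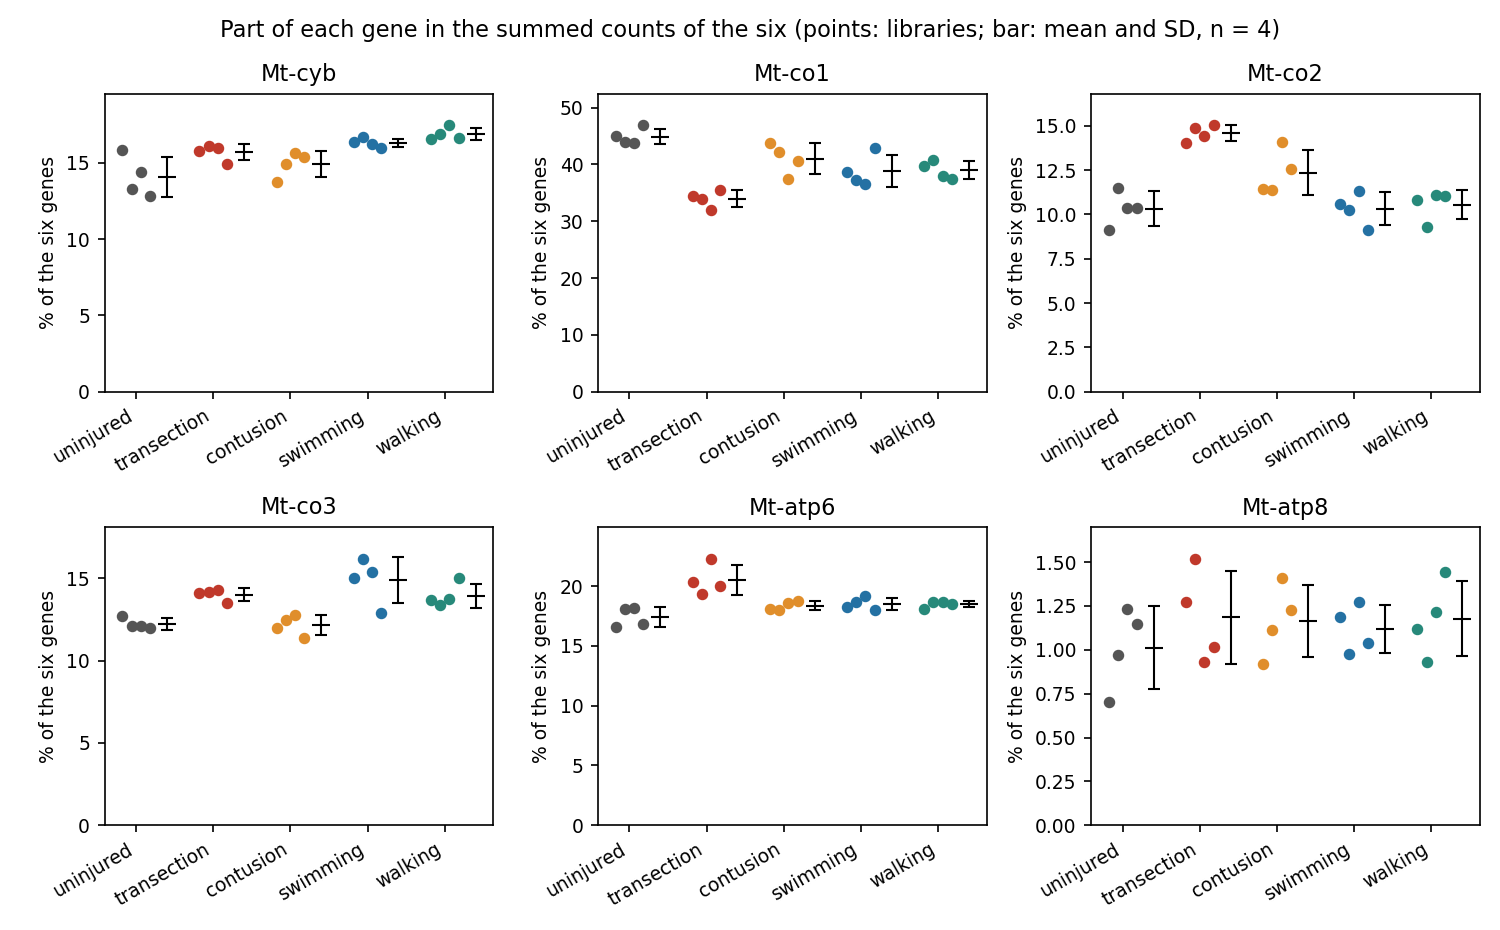
Part of each gene in the summed counts of the 6 genes (%, vertical axis, each panel from 0) in each library (points) by group, with mean and SD (n = 4). Transection points are the lowest for Mt-co1 (32.0% to 35.5%) and lie between 14.1% and 15.02% for Mt-co2.

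A ratio of 2 genes within a library does not depend on how libraries are scaled. Mt-co1 had 4.38 ± 0.464 counts per count of Mt-co2 in uninjured libraries and 2.33 ± 0.1003 in transection libraries, against 3.36 ± 0.530 in contusion, 3.80 ± 0.638 in swimming and 3.72 ± 0.462 in walking libraries (SD, n = 4 each). The transection libraries ran from 2.22 to 2.45, below the lowest value elsewhere, 2.66 in contusion library 3. This pair was chosen after the values were seen, so no test is given. The transection mean was 2.37 ± 0.0806 without library 3 (SD, n = 3). Per count of Mt-cyb, Mt-co1 had 3.21 in uninjured, 2.17 in transection, 2.76 in contusion, 2.38 in swimming and 2.31 in walking libraries, and the transection, swimming and walking libraries each lay below uninjured without overlap. Mt-atp6 per count of Mt-atp8, the pair on a shared messenger RNA, averaged 17.9, 18.1, 16.1, 16.8 and 16.1 in the same order of groups. It ran from 12.8 to 23.9 among transection libraries alone, and no comparison separated the groups. The ratios with Mt-co1 describe, without a test, unequal change of the paired genes in these libraries and not which of them changed.

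Within groups the genes moved largely together. The correlation of each gene's log2 CPM with the mean of the other five over the 20 libraries ran from 0.918 for Mt-co1 to 0.990 for Mt-atp6. With group means removed it ran from 0.769 for Mt-atp8 to 0.932 for Mt-atp6. The libraries share scaling factors and total depth across the genes, so these values are descriptions. The coefficient of variation of CPM between libraries ran from 19.4% for Mt-co1 to 37.7% for Mt-atp8 after transection, and from 2.57% for Mt-cyb to 11.4% for Mt-atp8 after swimming. For 5 of the 6 genes transection was the widest group and swimming the narrowest. For Mt-co1 contusion was the widest (20.3%) and walking the narrowest (6.10%).

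The genes whose pattern over the 20 libraries was most like the mean of the 6 were ENSRNOG00000030644 and ENSRNOG00000031033, by Pearson correlation of log2 CPM among the genes tested with a mean of at least 1 CPM. ENSRNOG00000030644 had a correlation of 0.982 (0.897 with group means removed), and read 9082 ± 975 CPM in uninjured, 26816 ± 7433 in transection, 14296 ± 2552 in contusion, 9341 ± 889 in swimming and 11711 ± 1662 in walking libraries (SD, n = 4 each). ENSRNOG00000031033 had a correlation of 0.979 (0.955 with group means removed), with 12184 ± 1940.5, 39681 ± 11510 (transection), 19361 ± 3491, 13771 ± 1074 and 16162 ± 2980.3 CPM in that order of groups. Both had transection as their highest group and contusion next, as the 6 genes did. Their log2 differences between transection and uninjured were 1.56 and 1.70. The pattern was therefore not particular to the 6 genes. No name for either identifier is given in the sources used here, so whether they too are mitochondrially encoded was not checked.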

How the data were processed

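The deposited values are whole-number counts per gene for 20 soleus libraries, not normalised, per the file's own values. The submitters' processing notes name FastQC 0.10.1, HTSeq and the build rn6. Aligner, annotation and strand setting are not given in the sources used here. Groups came from the sample labels, columns were matched by label, and 0 columns were left unmatched. The design text describes muscle taken from each animal, so a library was taken as 1 animal. Replicate pairs differed by 26.5 to 517 in chi-square per degree of freedom over 30 pairs, far beyond counting error. The upper part of that range came from swimming library 2, whose pairs with swimming libraries 1, 3 and 4 gave 390, 458 and 517. The highest value of any other pair was 133, for transection libraries 3 and 4.

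Counts were tested in R 4.3.3 by edgeR 4.0.16 (quasi-likelihood F test, robust, all 20 libraries, a mean per group, 15 residual degrees of freedom), after filterByExpr (minimum count 10) and scaling by the trimmed mean of M values. Benjamini-Hochberg adjustment ran over all 13398 genes tested, with a threshold of 0.05. CPM used scaled library sizes, fold changes a prior count of 0.125, and SE is the size of the log2 difference divided by the square root of F. Alternatives used other scalings and filters, the replicate number as a block, the compared groups alone, DESeq2 1.42.0, limma 3.58.1 (voom, sample weights), and libraries left out. The script was tested on simulated data. Figures used matplotlib 3.10.9.

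The 6 genes, the comparisons and the alternatives were chosen with earlier results of these data known. The named genes are the 6 and the pair most like them in pattern. None of the 47357 genes in the reference gene table (0) carries an Ensembl identifier, so the pathway and cell type marker lists planned for this work could not be applied, and no sequence or transcript length was used here. A test of the summed share was planned but is not given: it is a single score over genes named with earlier results known.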

Additional observations from a re-analysis of the deposited data

Results flagged for a closer look

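In 3 groups of 4 libraries, 1 library lay far from the other three: 65 groups were examined, and chance alone gives about 3.25. Mt-co1 read 44876 CPM in swimming library 4, against a next highest value of 38824 CPM. Mt-co3 made up 12.7% of the counts of the 6 genes in uninjured library 1, against a next highest value of 12.1%. Mt-co2 made up 9.32% in walking library 2, against a next lowest value of 10.8%. The changes from uninjured after the 2 injuries differed in the direct test of transection against contusion for 5 genes. The log2 differences were 0.83 for Mt-cyb, 0.99 for Mt-co2, 0.97 for Mt-co3, 0.91 for Mt-atp6 and 0.81 for Mt-atp8, with sampling at 8.5 and 11.5 weeks.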

How the results depend on the processing

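Of the values for single genes under alternatives, 822 kept their direction and side of the threshold, 27 lost and 8 gained a call, and 7 changed sign. All 7 changes of sign were in swimming against uninjured, near 0. Mt-cyb (0.01) went to -1.04e-03 with scaling computed without the 6 genes, to -0.0293 with voom, to -0.0289 without uninjured library 1, to -6.66e-03 without uninjured library 4 and also without swimming library 2, and to -0.0336 without transection library 3 and swimming library 2; with a library left out it ran from -0.0289 to 0.0680. Mt-atp8 (-0.10) went to 0.0506 without uninjured library 3, the highest of its values with a library left out, and the lowest was -0.303. The count of genes called moved to 1 with DESeq2 for contusion against uninjured, to 1 with DESeq2 and 1 with voom for swimming against uninjured, and to 1 with the compared groups alone for swimming against contusion (from 3, and 0 to 2 with a library left out). Against counts outside the 50 most abundant genes, the difference in percent was 29.1 for transection and 8.39 for contusion against uninjured, 20.7 for transection, -10.2 for swimming and -5.97 for walking against contusion, -4.19 for swimming against walking, and -1.78 for swimming and 2.42 for walking against uninjured. The cause of these changes was not tested.

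Between libraries with the same replicate number, correlations of their deviations ran from -0.286 to 0.428. Their means per number ran from -0.0324 for number 1 to 0.0450 for number 4, and the numbers were not taken as pairs. Pairs with different numbers were not computed for reference, so a weak link between libraries of the same number is not excluded. With the replicate block, Mt-atp6 in swimming against contusion (-0.66, adjusted p = 0.0600) was the only call among the 6 genes that was lost, and over all genes the calls in that comparison went from 298 higher and 302 lower to 161 and 182. With a library left out, 19 to 21 of the 48 differences in composition had no overlap, against 19 with all libraries. This alternative, and leaving out transection library 3 and swimming library 2 together for the shares and the composition, were chosen after seeing the data. At 19161 counts or more per gene, the spread between animals and not depth sets the error.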
